A study of Mus musculus with 3 samples.

Results

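Fibroblasts of the mouse aortic adventitia that carried transcripts of Wnt2, Sfrp4, Pthlh, Sema3e and Cd109 are described here. A cell was a member when it had at least 3 of these 5 genes with 1 UMI or more and fewer than 4 of the 5 progenitor genes Dpp4, Cd55, Sema3c, Dact2 and Limch1. It also had to pass a quality filter of at least 2000 UMIs (unique molecular identifiers, which count captured transcripts), at least 300 genes and at most 10% mitochondrial UMIs. A further gate for fibroblasts asked that Col1a1, Col1a2, Dcn and Lum together made up at least 1% of UMIs and that Ptprc, the pan-leukocyte CD45 gene, was at 0. These conditions kept 3269 members among 22682 gated fibroblasts, 36140 barcodes of sufficient quality and 45241 barcodes in all. The member counts were 958 in the Vehicle library, 965 in the AngII library and 1346 in the library from AngII with voluntary wheel running.

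The study profiled single cells of the adventitia, the outer layer of the aortic wall, in 9 mice. There were 3 mice given saline as Vehicle, 3 given angiotensin II (AngII, the pressor peptide of the renin-angiotensin system) and 3 given AngII with voluntary wheel running (VWR). The library titled AngIIEX was taken as this last group because it is the 1 title left for it in the study's design text, and no other label of that library names running. The labels name no strain, genotype, sex, age, dose or duration, and no library without AngII had running. Each group is a single 10x Genomics 3′ library, so no comparison between groups has a replicate check and no test was made. Intervals below are exact 95% intervals that cover counting error only. The AngII library enters both comparisons, AngII with Vehicle and AngII with running with AngII, so their values are given side by side and not set against each other.

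Wnt2 is a secreted ligand that signals through Frizzled receptors and Lrp5 or Lrp6 to stabilise beta-catenin, and Sfrp4 is a secreted Frizzled-related protein that binds Wnt ligands outside the cell. Pthlh encodes parathyroid hormone-related protein, a local ligand of the receptor Pth1r that raises cAMP and relaxes vascular smooth muscle. Sema3e is a secreted guidance ligand of plexin D1, and Cd109 is a membrane-anchored protein that restrains TGF-beta signalling. The progenitor genes used for exclusion mark the Dpp4+ fibroblasts of connective tissue, which are regarded as a reservoir for other fibroblasts.

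The upstream sequences of the marker genes are shown because all 5 genes define the cells. RefSeq promoter windows on GRCm38.p6 were at hand for 3 of the 5 genes, Wnt2, Pthlh and Sema3e. In each, the 250 bases before the RefSeq start were searched on both strands for CTTTGA (the TCF/LEF core of Wnt target genes), TGANTCA (AP-1), TGACGTCA (the cAMP response element), GCGGGGGCG (EGR factors) and GGAATG (the TEAD core). Bases that fall inside the longer GENCODE gene are not printed, and capitals mark the motif matches.

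Wnt2 (chr6:18030586-18030695, minus strand): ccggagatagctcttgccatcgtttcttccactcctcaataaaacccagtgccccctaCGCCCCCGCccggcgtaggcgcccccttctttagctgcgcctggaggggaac
Pthlh (chr6:147264184-147264263, minus strand): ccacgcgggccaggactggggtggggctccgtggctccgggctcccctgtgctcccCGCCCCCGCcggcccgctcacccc
Sema3e (chr5:14025026-14025275, plus strand): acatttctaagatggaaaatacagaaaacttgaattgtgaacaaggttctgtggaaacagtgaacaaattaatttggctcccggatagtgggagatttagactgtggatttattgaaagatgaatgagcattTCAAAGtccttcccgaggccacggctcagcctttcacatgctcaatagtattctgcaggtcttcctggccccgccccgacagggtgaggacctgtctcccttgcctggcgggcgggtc

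The Wnt2 and Pthlh windows each held 1 EGR motif on the reverse strand, a motif found in 2.57% of 32851 RefSeq windows of the same length. The Sema3e window held 1 TCF/LEF core on the reverse strand, a motif found in 13.8% of all windows. None of the 3 windows held the AP-1 motif, the cAMP response element or the TEAD core, which were present in 6.75%, 1.55% and 12.6% of all windows. Matches of letters are a description of these windows and say nothing of binding.

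Members were deeper than the other gated fibroblasts in every library. Their median depth was 17012 UMIs in Vehicle, 19008 in AngII and 8948 in AngII with running, against 11137, 13076 and 5179 in the other gated fibroblasts. The shallower sequencing of the running library touches every statement on which cells pass the rule, since a cell with fewer UMIs shows fewer of the 5 genes. The members summed to 17217164, 19797349 and 13456224 UMIs, and the median share of mitochondrial UMIs was 1.58%, 2.29% and 2.01%. The 3 libraries shared 44 to 80 barcodes in pairs, and no barcode was a member in more than 1 library. Col1a1, Col1a2, Dcn and Lum, which the gate had used, summed to 2.02%, 3.82% and 1.96% of UMIs in members. Of the fibroblast markers that the gate did not use, the receptor Pdgfra stood at 234, 187 and 240 CPM in members and at 13.0, 5.23 and 18.1 CPM in Ptprc-positive cells, and the surface protein Thy1 at 144, 125 and 148 CPM against 22.7, 10.4 and 17.6.

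The 5 marker genes chose the members, and their levels are therefore a description. Levels are in CPM, the UMIs of a gene as a part of all UMIs summed over the cells of a library, scaled to 1000000. Wnt2 (ENSMUSG00000010797, chr6:17988940-18030585) stood at 152 CPM in Vehicle members, 114 in AngII and 212 in AngII with running, against 60.5, 25.3 and 30.7 in the other gated fibroblasts. Sfrp4 (ENSMUSG00000021319, chr13:19623104-19632994) stood at 2936, 2497 and 3509 CPM against 834, 783 and 1243. Pthlh (ENSMUSG00000048776, chr6:147252101-147264183) stood at 116, 124 and 99.7 CPM against 23.4, 21.6 and 12.7. For these 3 genes every library's members were above all 3 values of the other fibroblasts. Cd109 (ENSMUSG00000046186, chr9:78615546-78716253) stood at 190, 163 and 276 CPM against 37.2, 55.3 and 76.6, again without overlap. Sema3e (ENSMUSG00000063531, chr5:14025276-14256689) stood at 41.1, 21.9 and 52.1 CPM against 32.0, 11.3 and 8.51, so the AngII members lay below the Vehicle value of the other fibroblasts. All coordinates of genes are GRCm38 from GENCODE.

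**Figure D1:**
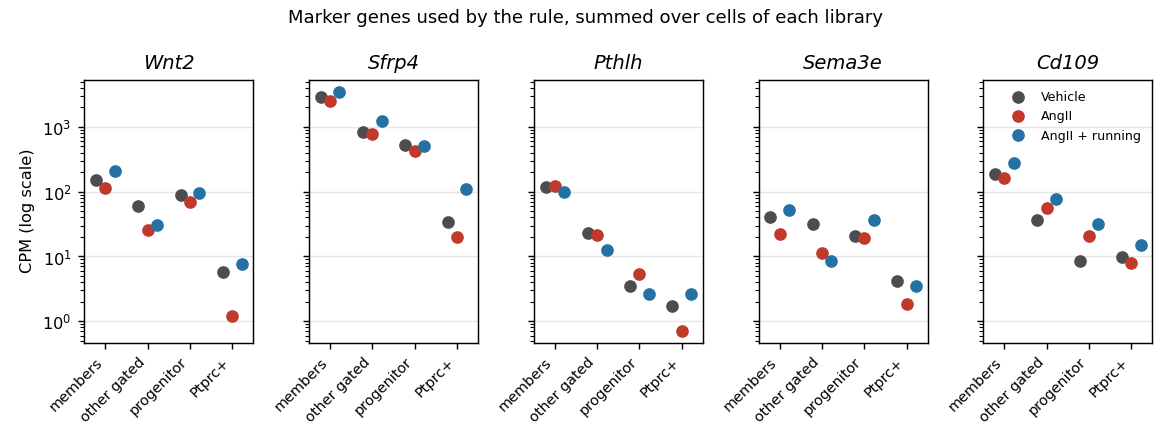
CPM (log axis) of the 5 marker genes in members, other gated fibroblasts, progenitor fibroblasts (at least 4 progenitor genes and fewer than 3 marker genes) and Ptprc-positive cells under the collagen gate, 1 point a library. Pthlh was highest in members and lower in progenitor fibroblasts (3.55, 5.43 and 2.67 CPM) than in the other gated fibroblasts, while Wnt2 stood at 88.2, 69.4 and 94.8 CPM in progenitor fibroblasts.

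By the share of cells with a UMI, Sfrp4 was the most widespread of the 5 genes outside the members. By level, Sema3e had the smallest ratio of members to others in Vehicle and AngII, with log2 values of 0.35 and 0.89. The others include cells with at least 3 marker genes that were left out for their progenitor genes, in unequal parts between libraries. Sfrp4 was seen in 99.3%, 98.03% and 98.8% of members, and also in 72.4%, 64.6% and 69.3% of the other gated fibroblasts. In Ptprc-positive cells with under 1% of collagen, Dcn and Lum UMIs, which should lack these genes, it was seen in 19.8%, 21.9% and 43.8%, at median depths of 13711, 15379 and 6172 UMIs. Pthlh was seen in 67.1%, 76.7% and 50.6% of members, in 13.9%, 13.2% and 5.77% of the other gated fibroblasts and in 1.46%, 1.07% and 1.65% of the Ptprc-positive cells. Wnt2 was seen in 78.3%, 64.1% and 75.8% of members and in 2.82%, 1.29% and 2.71% of the Ptprc-positive cells. Sema3e was the rarest, seen in 17.6%, 9.22% and 21.0% of members and in 1.496%, 0.645% and 0.952% of the Ptprc-positive cells. Most members were thus chosen on combinations of the other 4 genes. Progenitor fibroblasts carried Wnt2 in 49.8%, 37.9% and 39.9% of cells and Pthlh in 4.10%, 5.92% and 1.79%.

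The mix of combinations differed between libraries. The set Wnt2, Sfrp4 and Cd109 accounted for 24.6% of members in Vehicle, 19.9% in AngII and 36.0% in AngII with running. The set Sfrp4, Pthlh and Cd109 accounted for 18.5%, 33.1% and 16.3%. Cells with Wnt2, Sfrp4, Pthlh and Cd109 together made up 23.5%, 26.7% and 18.7%, and cells with all 5 genes made up 7.52%, 4.25% and 5.05%. The members of AngII were thus more often Pthlh-bearing and less often Wnt2-bearing than those of the other libraries, as counts of cells. These combinations depend on depth in the same way as membership does.

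Cells just inside and just outside the rule differed by degree. Members with exactly 3 marker genes had 122, 63.0 and 158 CPM of Wnt2 and 83.0, 86.0 and 57.9 CPM of Pthlh, while gated cells with 2 marker genes had 42.3, 14.3 and 47.7 CPM of Wnt2 and 41.1, 31.7 and 22.9 CPM of Pthlh. On the side of the progenitor genes, members with 3 of them had 434, 221 and 551 CPM of Cd55, the complement decay-accelerating factor, and cells with at least 3 marker genes that were left out for having 4 of them had 795, 746 and 1045 CPM. That second boundary cut through a group of cells with high Wnt2, which stood at 189, 198 and 269 CPM just inside and at 180, 194 and 273 CPM just outside. In total 569 Vehicle, 232 AngII and 169 running cells had at least 3 marker genes and were left out for at least 4 progenitor genes. They count among the other gated fibroblasts. There they held 13771279 of 67436421 UMIs in Vehicle, 5737584 of 67807105 in AngII and 2086400 of 52879641 with running. Those with 4 progenitor genes had 111, 106 and 152 CPM of Sema3e. The part of these cells in the levels of the other gated fibroblasts was not tested.

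The share of gated fibroblasts that were members was 15.1% in Vehicle (exact binomial interval 14.3% to 16.0%), 16.2% in AngII (15.2% to 17.1%) and 13.0% in AngII with running (12.3% to 13.6%). The ratio of AngII to Vehicle was 1.07 (0.976 to 1.17) and that of AngII with running to AngII was 0.801 (0.737 to 0.871). The direction of the second ratio differed with depth taken into account, and so did that of the first after thinning. The interval of the first with all UMIs held 1. Thinning to a number of UMIs left out the cells that had fewer. At 5000 UMIs per cell the gated fibroblasts numbered 5196, 5305 and 6052, against 6328, 5966 and 10388 with all UMIs. The shares there were 9.97%, 7.24% and 13.0%, with ratios of 0.726 (0.635 to 0.830) and 1.80 (1.59 to 2.04). At 2000 UMIs per cell they were 2.86%, 2.46% and 3.48%, with ratios of 0.861 (0.690 to 1.07) and 1.41 (1.17 to 1.72). Within each of 4 ranges of depth the running library had a higher share than AngII, for example 39.9% against 15.5% among cells with 10000 to 20000 UMIs. Over the 4 ranges, from the lowest, AngII over Vehicle was 1.03 (0.543 to 1.91), 0.811 (0.611 to 1.07), 0.807 (0.705 to 0.924) and 1.28 (1.10 to 1.47). As a background, at least 3 of the 5 genes were seen in 1.29%, 0.172% and 0.842% of the Ptprc-positive cells. With 1 library a group, the dissociation of a sample and the composition of the tissue cannot be told apart.

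**Figure D2:**
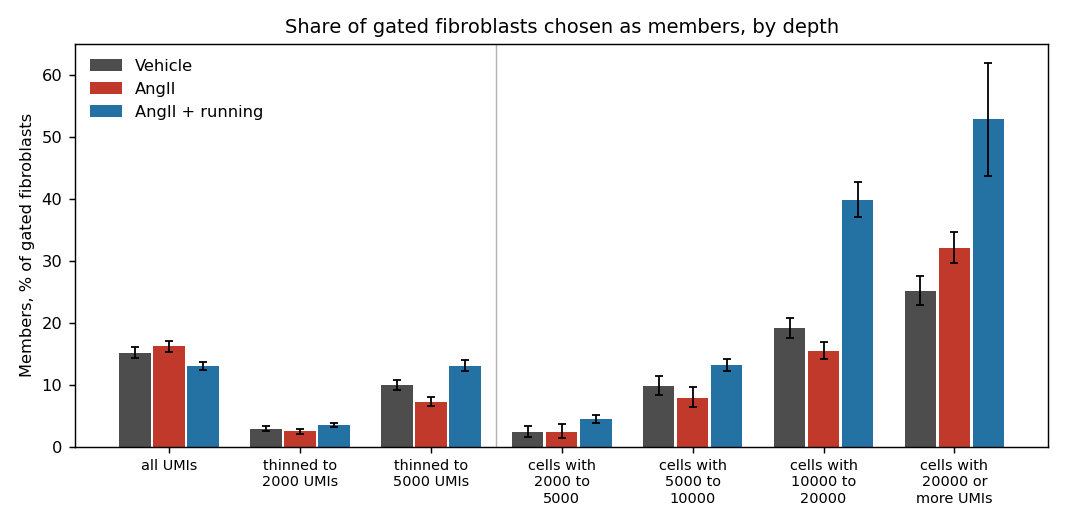
Members as a percentage of gated fibroblasts in each library, with all UMIs, after thinning cells to the same number of UMIs, and within ranges of UMIs per cell. Cells with fewer UMIs than the number thinned to were left out. Bars are shares and lines are exact 95% binomial intervals; AngII with running was lowest with all UMIs and highest after thinning and in each range.

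Compared with the other gated fibroblasts of the same library, members differed at few genes beyond those of the rule. Of 9908 genes measured in each library, 22 were higher in members by 2-fold or more in all 3 libraries (0.222%) and 30 were lower by as much (0.303%). The 22 included 4 of the 5 marker genes. Because the same cells and the same UMIs chose the members, these are descriptions and no test was made. When members were chosen on a random part of each cell's UMIs and measured on the rest, 65 genes were at least 2-fold lower, and with cells thinned to 5000 UMIs 47 were higher and 139 lower.

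Synm, Cdh13, Cav1 and Rcan1 were among the 15 highest genes. Synm, an intermediate filament protein, stood at 55.0, 51.2 and 77.4 CPM in members and at 15.5, 23.4 and 28.2 CPM in the other gated fibroblasts. Cdh13, a cadherin without a cytoplasmic tail, stood at 206, 120 and 251 CPM against 83.8, 56.9 and 79.6. Cav1, the main coat protein of caveolae, stood at 133, 66.7 and 157 CPM against 50.3, 37.8 and 67.4. For these 3 genes the members of a library exceeded the other fibroblasts of the same library, although Cav1 in AngII members lay below the 67.4 CPM of the other fibroblasts with running. Rcan1, an inhibitor of calcineurin, stood at 234, 228 and 236 CPM in members and at 125, 128 and 72.6 CPM in the others.

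Among the 15 highest genes were also Igfbp6, Postn and Stk38l. Igfbp6, a binding protein for insulin-like growth factors, stood at 4908, 2754 and 3308 CPM in members and at 2446, 1306 and 1332 CPM in the other gated fibroblasts. Postn, the matricellular protein periostin, stood at 103, 845 and 631 CPM against 40.1, 406 and 170, a ratio of 2.57, 2.08 and 3.70 within the libraries. Members had more periostin transcripts than the other fibroblasts in the Vehicle library too, where its level was lowest. There it was seen in 23.4% of members, and 10 of the 958 held 35.8% of its UMIs. Stk38l, a kinase of the NDR family, had ratios of 1.85, 1.96 and 2.36.

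Lgals3, S100a4, Egr3 and Fxyd5 belonged to the 15 highest genes as well, but immune cells carried more of them. Lgals3, which encodes galectin-3, stood at 86.4, 87.2 and 164 CPM in members, at 25.8, 33.4 and 51.1 CPM in the other gated fibroblasts and at 266, 410 and 442 CPM in Ptprc-positive cells. S100a4, a calcium-binding protein, stood at 252, 245 and 269 CPM in members, 59.1, 95.6 and 104 CPM in the others and 550, 545 and 833 CPM in Ptprc-positive cells. The immediate early factor Egr3 stood at 91.9, 97.1 and 108 CPM in members and at 28.6, 40.4 and 39.3 CPM in the others. The macrophage list, without Ptprc, summed to 403, 339 and 646 CPM in members and to 339, 411 and 1028 CPM in the other gated fibroblasts, so it was not uniformly higher in members; its part in the ratios of these 4 genes was not tested.

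The 8 lowest genes in members included secreted factors, lipid genes and a kinase. Vegfd, a lymphangiogenic growth factor, stood at 67.0, 76.3 and 76.2 CPM in members and at 202, 241 and 228 CPM in the other gated fibroblasts. Sfrp1, another secreted Frizzled-related protein, stood at 93.6, 236 and 242 CPM against 232, 644 and 557, and was thus opposite in direction to Sfrp4. Apoe stood at 247, 685 and 431 CPM against 650, 1559 and 1280, and lipoprotein lipase, Lpl, at 102, 105 and 73.9 CPM against 248, 234 and 182. The remaining 4 of the 8 lowest genes were Prkg1, the cGMP-dependent kinase, the chemokine Ccl11, the matricellular protein Smoc2 and the carboxypeptidase Cpz, with ratios between 0.313 and 0.5004 in the 3 libraries. Vegfd in members of every library lay below all 3 values of the other gated fibroblasts, while Sfrp1 in AngII and running members lay above the Vehicle value of the others.

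**Figure D3:**
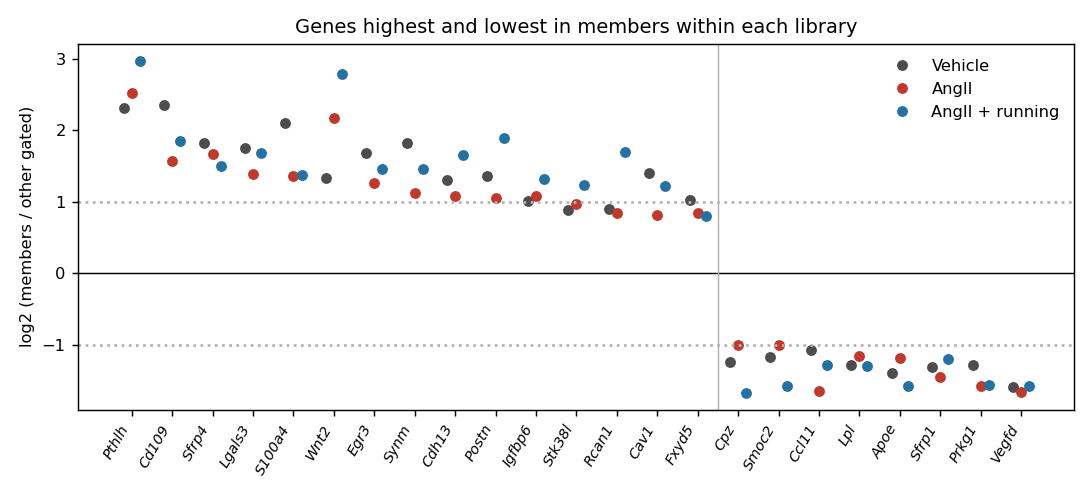
Log2 ratio of CPM between members and the other gated fibroblasts in each library for the 15 highest and 8 lowest genes, ranked by the least favourable library; dotted lines mark 2-fold. Pthlh led. As plain ratios of CPM and not log2, Wnt2 was 2.51-fold in Vehicle, its smallest, and 6.89-fold in AngII with running, its largest.

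Gene sets of other adventitial fibroblasts overlapped members only in part. Transcripts of Vegfd, Fmod and Angptl7 together were seen in 2.71%, 4.66% and 1.56% of members and in 7.28%, 7.16% and 4.52% of the other gated fibroblasts. Transcripts of Cilp, Sfrp1 and Piezo2 together were seen in 4.49%, 26.3% and 12.2% of members and in 3.11%, 18.1% and 10.4% of the others. Thbs4 and Tnc together were seen in 0 of 958 Vehicle members, where 3 counts of the total, the limit used here for a count of 0, allow up to 0.313% of cells with such UMIs. They were seen in 64 of 965 AngII members (6.63%) and in 8 of 1346 members with running (0.594%), and in 0 of 5370, 2.78% and 0.409% of the other gated fibroblasts. Penk, Ptx3 and Has1 together were seen in 5.11%, 2.80% and 0.892% of members and in 6.05%, 6.88% and 0.531% of the others. Members were deeper than the others, and the part of depth in these shares was not tested.

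Among the genes that differed most between AngII and Vehicle members, Thbs4, Postn, Cthrc1, Fmod and Col8a1, which encode matrix or matricellular proteins, were higher in AngII. Of 10362 genes measured, 326 were higher by 2-fold or more (3.15%) and 147 were lower by as much (1.42%), and the median log2 ratio over all genes was −0.06. Ratios are on the log2 scale of CPM with a pseudocount of 1, and folds are ratios of CPM. The other gated fibroblasts had 348 genes higher and 220 lower by the same fold. All 10 of the highest named genes were also at least 2-fold higher in the other gated fibroblasts, as were 9 of the 10 lowest in the opposite direction. In Ptprc-positive cells 2 of the 10 highest and 9 of the 10 lowest genes also differed by 2-fold or more in the same direction, and the part of free RNA or of the library in these ratios was not tested.

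Thbs4, the matricellular thrombospondin 4 (ENSMUSG00000021702, chr13:92751590-92794818), stood at 1.34 CPM in Vehicle members, 171 in AngII and 13.0 in AngII with running. AngII exceeded Vehicle 128-fold (85.1 to 202) and exceeded running 13.1-fold. That interval takes each Thbs4 UMI as a separate count and leaves out how the transcripts were spread over cells. These transcripts sat in few cells: 2 of 958 Vehicle members, 141 of 965 AngII members and 34 of 1346 members with running had any, and the top 10 AngII members held 55.0% of the UMIs of that library's members. In Ptprc-positive cells it was seen in 0.0696%, 1.80% and 0.733%. Postn (ENSMUSG00000027750, chr3:54361109-54391037) was broader, seen in 23.4%, 67.7% and 54.3% of members and in 5.95%, 13.4% and 7.47% of Ptprc-positive cells, and its level was 8.21-fold (7.82 to 8.62) higher in AngII than in Vehicle.

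Further matrix genes were high in AngII members and intermediate with running. Cthrc1, a secreted protein of injured vessels, stood at 30.4 CPM in Vehicle, 344 in AngII and 162 in AngII with running. Fmod, the small proteoglycan fibromodulin, stood at 31.0, 353 and 71.3 CPM, and Col8a1, a short-chain collagen, at 90.3, 632 and 319 CPM. In the Vehicle library 48.4% of the Col8a1 UMIs came from 10 members. Fmod differed more in members, where its log2 ratio was 3.47, than in the other gated fibroblasts, where it was 1.10.

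Membrane and secreted proteins made up the others of the 10 highest. Kcnma1, the pore of the large-conductance calcium-activated potassium channel, stood at 20.0, 375 and 119 CPM, and the mechanosensitive channel Piezo2 at 28.9, 238 and 141 CPM. Ecrg4, a secreted precursor peptide, stood at 20.9, 399 and 61.5 CPM, Ndnf at 6.21, 120 and 14.8 CPM and the carboxypeptidase-like Cpxm2 at 56.7, 365 and 123 CPM. In each of these 5 genes the AngII members were highest, the running members lay between and the Vehicle members were lowest.

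Genes lower in AngII members included signalling antagonists and ligands. Hhip, which binds hedgehog ligands and limits their signalling, stood at 171 CPM in Vehicle, 22.7 in AngII and 40.2 in AngII with running, 7.54-fold lower in AngII than in Vehicle. Kitl, the ligand of the receptor Kit, stood at 155, 31.8 and 56.0 CPM. The eosinophil chemokine Ccl11 stood at 193, 51.9 and 44.5 CPM, and Thbd, the anticoagulant thrombomodulin, at 222, 81.2 and 212 CPM. The dipeptidase Dpep1 stood at 698, 201 and 329 CPM. The other 5 genes, Cadm3, Lsamp, Inmt, C7 and Plcxd3, were 2.61-fold to 3.54-fold lower in AngII than in Vehicle.

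**Figure D4:**
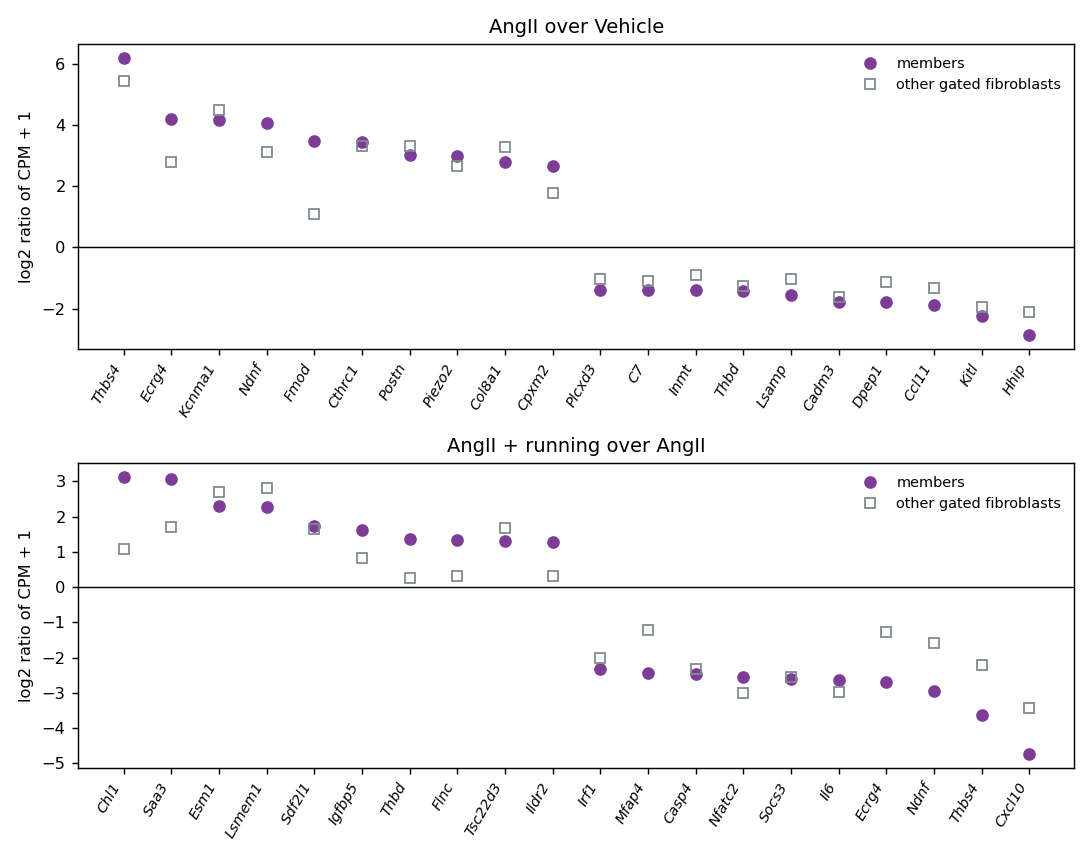
Log2 ratios of CPM with a pseudocount of 1 for the 10 highest and 10 lowest named genes of each comparison, in members (filled circles) and in the other gated fibroblasts (open squares). The direction was the same in members and others for all genes shown; the ratio lay farther from 0 in members for 7 of the 10 highest and 10 of the 10 lowest genes in the upper panel, and for 7 of 10 and 8 of 10 in the lower panel.

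Cxcl10, Il6 and interferon response genes were lower in members with running than in AngII members. Of 10452 genes measured, 202 were higher by 2-fold or more (1.93%) and 260 were lower by as much (2.49%), and the median log2 ratio over all genes was 0.10. Cell Ranger versions and depth differed between these libraries as well, so that library preparation and running cannot be told apart. The other gated fibroblasts had 265 genes higher and 186 lower by the same fold. Of the 10 highest named genes 6 were at least 2-fold higher in the other gated fibroblasts too, and 5 in Ptprc-positive cells. Of the 10 lowest, 10 were at least 2-fold lower in the other gated fibroblasts and 1 in Ptprc-positive cells. The part of free RNA or of the library in these ratios was not tested.

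Cxcl10, an interferon-induced chemokine, stood at 26.4 CPM in Vehicle members, 104 in AngII and 2.97 in AngII with running, 35.0-fold lower with running than in AngII. It was seen in 6.89%, 11.9% and 1.71% of members and in 12.5%, 25.999% and 8.21% of Ptprc-positive cells, so the Ptprc-positive cells carried it more often than members did. In AngII members 75.9% of its UMIs came from 10 cells. Il6, the acute-phase cytokine, was spread more widely, at 113, 313 and 49.9 CPM, and was seen in 27.3%, 48.1% and 13.3% of members and in 10.9%, 22.1% and 5.97% of Ptprc-positive cells. Its level with running was lower than in the Vehicle library as well.

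Socs3, Irf1, Casp4 and Nfatc2 were among the 10 lowest genes with running as well. Socs3, the feedback inhibitor of cytokine receptors, stood at 365, 481 and 78.3 CPM, and the transcription factor Irf1 at 115, 271 and 53.4 CPM. The inflammatory caspase Casp4 stood at 55.8, 119 and 20.7 CPM and the calcineurin-dependent factor Nfatc2 at 54.9, 145 and 23.8 CPM. For these 4 genes the running members were the lowest of the 3 libraries. Mfap4, a microfibril-associated protein, stood at 452, 1442 and 267 CPM, while Thbs4, Ndnf and Ecrg4, named above, were the other 3 of the 10 lowest. The log2 ratio of Nfatc2 was −2.56 with all UMIs, −1.43 with cells thinned to 5000 UMIs and −0.82 with cells thinned to 2000.

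Among genes higher with running, some were widespread and some sat in few cells. Igfbp5, an insulin-like growth factor binding protein, stood at 2865, 1220 and 3748 CPM and was seen in 92.5%, 68.5% and 87.7% of members and in 40.7%, 20.1% and 38.7% of Ptprc-positive cells. Its level was 3.07-fold (3.03 to 3.12) higher with running than in AngII. In Ptprc-positive cells it was higher with running too, at 4957 of 19103553 UMIs against 1556 of 37828747 in AngII. Sdf2l1, a component of chaperone complexes in the endoplasmic reticulum, stood at 89.3, 41.7 and 140 CPM, and Tsc22d3, a glucocorticoid-induced leucine zipper protein, at 153, 106 and 266 CPM. Flnc, the actin cross-linker filamin C, stood at 49.8, 41.4 and 107 CPM, Ildr2 at 118, 80.8 and 199 CPM, and Lsmem1 at 12.1, 24.3 and 122 CPM.

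Saa3, an acute-phase apolipoprotein, stood at 0.523, 11.6 and 105 CPM, but 92.0% of its UMIs in members with running came from 13 cells and 93.0% of those in AngII members from 10 cells. Chl1, an adhesion molecule of the L1 family, stood at 0.523, 10.8 and 103 CPM with 77.9% of the UMIs of the running members in 13 cells. Both ratios therefore rest on a handful of cells, and the log2 ratio of Saa3 was 3.08 with all UMIs, 0.23 with cells thinned to 2000 UMIs and 0.92 without the condition on progenitor genes. Esm1, the endothelial-cell-specific proteoglycan endocan, stood at 33.8, 19.6 and 101 CPM in members and 8.47, 4.97 and 37.9 CPM in the other gated fibroblasts. In every library members carried more Esm1 than the others. Esm1 was seen in 10.1% of Vehicle and 8.50% of AngII members, and 10 cells held 45.4% and 54.0% of its UMIs there.

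Collagens were higher in AngII members and lower again with running. Of 19 measured collagen genes, 18 were higher in AngII than in Vehicle, with a median log2 ratio of 0.84, while 40.3% of all genes were higher. With running, 17 of 19 were lower than in AngII, with a median of −0.63, while 38.4% of all genes were lower. Col1a1 stood at 4356, 11844 and 5706 CPM and Col3a1 at 4880, 11554 and 8628 CPM, with Col1a1 itself among the genes of the fibroblast gate. Col11a1, a fibrillar collagen of cartilage, stood at 0.465, 20.7 and 5.80 CPM. In the other gated fibroblasts the list medians were 0.73 and −0.46.

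Activated fibroblast genes, several of which are also named above, were mostly higher in AngII members. Of the 15 measured genes 11 were higher in AngII members, while 40.3% of all genes were higher. The median log2 ratio was 2.41 against 1.29 in the other gated fibroblasts. With a pseudocount of 10 CPM the median in members was 1.09, and that of the others was not computed. The 4 lower genes included the contractile genes Acta2, at 205, 83.7 and 67.8 CPM, and Tagln, at 137, 98.2 and 35.4 CPM. Smooth muscle markers together summed to 506, 301 and 200 CPM in members, and their part in those values was not tested. Without the members that carried Thbs4 or Tnc, which were 29, 247 and 93 cells, the list median was 0.59. With running, 12 of 14 measured genes were lower than in AngII, while 38.4% of all genes were lower. The median was −0.95, and without those members it was 0.00. Thbs4 and Tnc are themselves in the list, so their removal takes out cells by genes of the list. It also fixes the log2 ratios of both genes at 0. The medians after removal, 0.59 and 0.00, include these fixed values and do not describe the remaining genes alone.

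Other matrix groups had smaller medians. Of 11 proteoglycan genes, 8 were higher in AngII than in Vehicle (median 0.46) and 8 were lower with running than in AngII (median −0.40). Of all genes 40.3% were higher in AngII and 38.4% were lower with running. Of 17 elastic fibre genes, 12 were higher in AngII, among them the cross-linking enzyme Lox at 65.1, 322 and 189 CPM and elastin itself, Eln, at 427, 933 and 562 CPM. Basement membrane genes went the other way. In AngII 11 of 15 were lower (median −0.29), while 59.7% of all genes were lower. With running 12 of 15 were higher (median 0.29), while 61.6% of all genes were higher. By 1.5-fold or more, 4 of the 15 were lower in AngII and 0 were higher with running. Among proteases, Mmp2 stood at 305, 759 and 481 CPM and Mmp3 at 412, 400 and 918 CPM.

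Wnt ligands as a list were lower in AngII members than in Vehicle members. Of 10 measured ligands and R-spondins, 8 were lower and the median log2 ratio was −0.63, while 59.7% of all genes were lower. The other gated fibroblasts had a lower list median, −1.11, and one of 0.16 for running over AngII. With running 7 of 9 were higher than in AngII, where 61.6% of all genes were higher, with a median of 0.26 where the median of all genes was 0.10. Wnt5a, which signals mostly without beta-catenin, stood at 111, 80.9 and 97.4 CPM, and Wnt9a at 52.8, 40.4 and 46.1 CPM. Wnt10b stood at 33.5, 9.95 and 31.6 CPM and Wnt11 at 32.3, 10.5 and 15.5 CPM. Wnt2, whose value in members depends on the rule, was 0.751 of its Vehicle level in AngII members and 1.86 of its AngII level with running, and in the other gated fibroblasts it had log2 ratios of −1.23 and 0.27. Those others hold the 569, 232 and 169 cells left out for progenitor genes, so their Wnt2 values depend on the rule too.

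Secreted Wnt inhibitors were mostly higher in AngII members. Of 9 measured genes 7 were higher than in Vehicle, where 40.3% of all genes were higher, with a median log2 ratio of 0.98. With running 5 of 9 were higher than in AngII, where 61.6% of all genes were higher, with a median of 0.04. The list medians in the other gated fibroblasts were 0.82 and 0.15. Sfrp2 stood at 584, 1928 and 953 CPM, Dkk3 at 89.4, 178 and 153 CPM, and Dkk2, which binds Lrp6, at 3.19, 21.6 and 9.36 CPM. Sfrp1 was 2.53-fold (2.39 to 2.67) higher in AngII than in Vehicle and 1.03-fold (0.981 to 1.07) of its AngII level with running. Sfrp4 did not follow them, with 0.850 of its Vehicle level in AngII members. Kremen1, a Dkk receptor, stood at 41.4, 43.2 and 50.2 CPM and Igfbp4 at 1744, 1362 and 1787 CPM.

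Receptors and targets of Wnt signalling were measured in the same cells. Of 14 receptor genes 10 were higher in AngII than in Vehicle (median 0.43), and 7 of 14 were higher with running than in AngII (median −0.02). Shares of all genes were 40.3% and 61.6%, and the list medians in the other gated fibroblasts were 0.42 and 0.06. The non-canonical receptors Ror1 and Ror2 stood at 167, 233 and 289 CPM and at 22.5, 58.0 and 50.8 CPM, and the co-receptor Lrp6 at 144, 189 and 159 CPM. Fzd4 stood at 159, 91.9 and 94.6 CPM, Fzd1 at 62.0, 85.8 and 91.0 CPM and Fzd2 at 88.4, 88.1 and 73.1 CPM. Of 8 target genes 7 were higher in AngII (median 0.56), and 7 of 8 were lower with running (median −0.45), where 38.4% of all genes were lower. The target medians in the other gated fibroblasts were 0.30 and −0.08. Axin2, the most general target of beta-catenin, was low throughout, at 4.01, 6.72 and 4.76 CPM in members and 5.92, 5.31 and 5.90 CPM in the other gated fibroblasts. Ccn5 stood at 152, 460 and 193 CPM, Ccn4 at 4.12, 36.5 and 19.3 CPM, Myc at 81.2, 97.4 and 41.5 CPM and Ccnd1, the 1 target lower in AngII, at 75.0, 33.6 and 54.6 CPM.

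Pth1r, the receptor for the Pthlh product, was lower in members than in the other gated fibroblasts of each library. It stood at 5.34, 13.3 and 5.65 CPM in members and at 11.7, 17.3 and 11.2 CPM in the others. Of 18 measured genes of the PTHrP and cAMP list, 13 were higher in AngII than in Vehicle (median 0.16), while 40.3% of all genes were higher. With running 10 of 18 were higher than in AngII (median 0.08), where 61.6% of all genes were higher with a median of 0.10. The cAMP phosphodiesterases Pde4b and Pde4d stood at 44.9, 121 and 25.5 CPM and at 233, 448 and 261 CPM, and Pde7b at 44.8, 96.6 and 38.0 CPM. These 3 genes were highest in AngII, and Pde4b and Pde7b were lower with running than in Vehicle. Gnas, the stimulatory G protein subunit, stood at 1580, 1743 and 1112 CPM, and Pde3a at 79.3, 132 and 114 CPM. Prkar1a, a regulatory subunit of the cAMP-dependent kinase, stood at 136, 123 and 159 CPM.

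Plxnd1, which encodes the Sema3e receptor plexin D1, stood at 2.03, 3.94 and 4.53 CPM in members and at 4.27, 7.77 and 10.1 CPM in the other gated fibroblasts. Of 10 measured semaphorin, plexin and neuropilin genes 6 were higher in AngII than in Vehicle (median 0.05), where 40.3% of all genes were higher. Between running and AngII 7 of 11 measured were higher with running (median 0.37), near the 61.6% of all genes that were higher. Nrp1, the co-receptor of class 3 semaphorins, stood at 185, 189 and 245 CPM, Plxna4 at 37.1, 83.6 and 69.4 CPM and Plxna2 at 21.8, 36.2 and 34.0 CPM. The ligand Sema3d stood at 59.4, 53.0 and 62.5 CPM and Sema3b at 45.5, 47.7 and 21.6 CPM. Sema3c, used by the rule for exclusion, stood at 279, 113 and 220 CPM.

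In the TGF-beta list single components differed while the list median stayed near 0. Of 21 measured genes 11 were higher in AngII than in Vehicle, with a median log2 ratio of 0.01, while 40.3% of all genes were higher. With running 9 were higher than in AngII, with a median of −0.07, while 61.6% of all genes were higher. The ligand Tgfb3 stood at 47.8, 140 and 66.5 CPM, Tgfb2 at 105, 130 and 90.1 CPM and Tgfb1 at 30.9, 29.8 and 40.8 CPM. Latent binding proteins went different ways, with Ltbp2 at 21.4, 126 and 117 CPM, Ltbp1 at 213, 113 and 176 CPM and Ltbp4 at 974, 603 and 821 CPM. The receptor Tgfbr1 stood at 72.1, 80.0 and 81.3 CPM. Thbs1, an activator of latent TGF-beta, stood at 41.2, 101 and 79.3 CPM. The target gene Tgfbi was lowest with running, at 839, 577 and 283 CPM.

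Growth factors of other families differed between libraries as well. Igf1 stood at 208, 693 and 432 CPM in members, and Igfbp3 at 0.987, 44.6 and 14.1 CPM. Bmp2 stood at 71.9, 13.5 and 26.4 CPM, 1 of 10 BMP pathway genes among 16 that were lower in AngII than in Vehicle (median −0.13), near the 59.7% of all genes that were lower. With running 14 of 17 genes of that list were higher than in AngII (median 0.33), while 61.6% of all genes were higher. Vegfa stood at 34.9, 10.2 and 28.1 CPM and Fgf2 at 37.3, 26.9 and 57.4 CPM.

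Interferon response genes had a median near 0 between Vehicle and AngII members and were lower with running. Of 12 measured genes 7 were higher in AngII (median 0.06), where 40.3% of all genes were higher. With running 11 of 11 were lower than in AngII, with a median log2 ratio of −1.29 against −0.78 in the other gated fibroblasts. Isg15, a ubiquitin-like modifier, stood at 46.1, 57.1 and 9.51 CPM, and Ifit1 and Ifit3 at 35.0, 36.7 and 5.87 CPM and at 37.1, 39.8 and 6.47 CPM. Of 18 cytokines and chemokines measured between running and AngII, 11 were lower and 7 higher, while 38.4% of all genes were lower, with 5 lower and 3 higher by 2-fold or more. Cxcl1 stood at 717, 1131 and 315 CPM and the monocyte chemokine Ccl2 at 664, 533 and 268 CPM. Among the higher genes, Cxcl14 stood at 1.34, 8.33 and 42.4 CPM and the decoy receptor Tnfrsf11b at 10.2, 11.9 and 35.7 CPM.

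Chaperones of the endoplasmic reticulum were lower in AngII and higher with running. All 13 measured genes were lower in AngII than in Vehicle (median −0.46) and all 13 were higher with running than in AngII (median 0.51). Those directions held for 59.7% and 61.6% of all genes, and the list medians were −0.61 and 0.57 in the other gated fibroblasts. Hspa5, the chaperone BiP, stood at 1671, 802 and 1024 CPM, Manf at 429, 265 and 495 CPM and Dnajb9 at 95.4, 69.3 and 142 CPM. Of 26 immediate early and stress genes, which respond to enzymatic dissociation, 12 were higher in AngII than in Vehicle (median −0.02), near the 40.3% of all genes. With running 16 were lower than in AngII (median −0.35), while 38.4% of all genes were lower. Atf3 stood at 1667, 1268 and 460 CPM and Jun at 2337, 2330 and 1204 CPM, and the part of handling in the other ratios was not tested.

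Progenitor genes outside the rule were lower in AngII members than in Vehicle members. Of 10 such genes 9 were lower (median −0.77, against −1.40 in the other gated fibroblasts), while 59.7% of all genes were lower. Smpd3 stood at 58.8, 17.2 and 48.5 CPM, Cd34 at 923, 541 and 559 CPM, Ly6a (Sca-1) at 2610, 1409 and 1997 CPM and Pi16 at 2806, 2064 and 1538 CPM. With running 9 of 10 were higher than in AngII, where 61.6% of all genes were higher, with a median of 0.60. But that median was 0.10 with cells thinned to 5000 UMIs and 0.14 without the condition on progenitor genes. Fn1, the fibronectin gene, was higher in members than in the other gated fibroblasts of each library, at 3171, 3429 and 5151 CPM against 1854, 1949 and 1464.

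**Figure D5:**
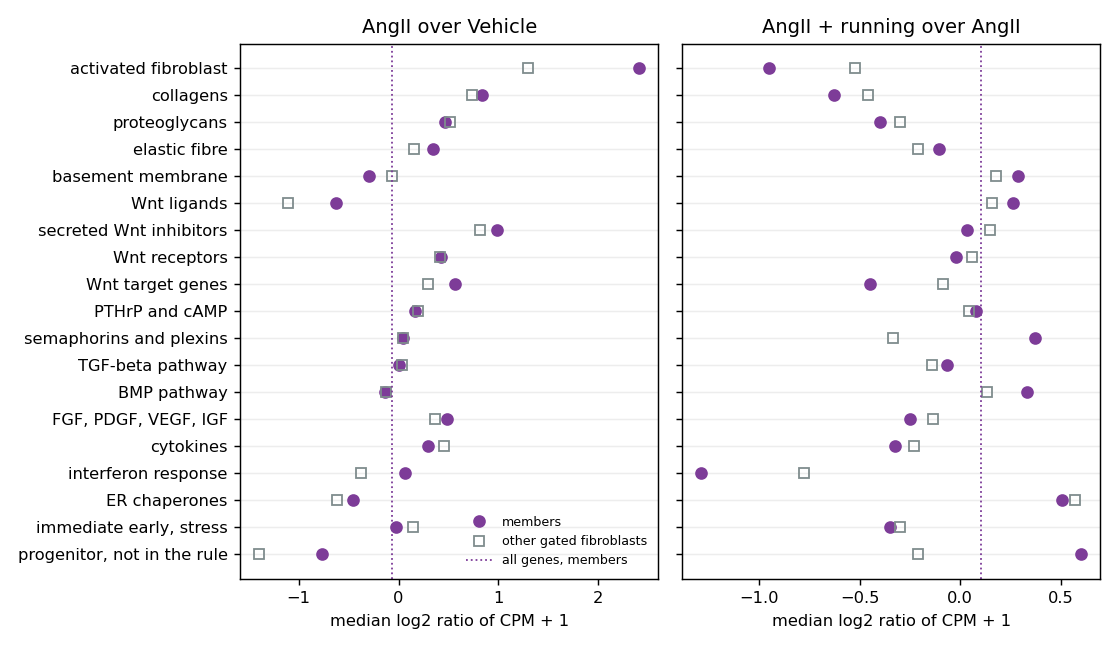
Median log2 ratio of the measured genes of 19 lists in members (filled circles) and the other gated fibroblasts (open squares) for both comparisons, which share the AngII library; dotted lines are the median of all genes in members. Activated fibroblast genes and collagens lay to the right in the left panel and to the left in the right panel, and interferon genes were the lowest list with running.

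Markers of other cell types were not even between libraries. Pericyte markers summed to 393, 401 and 455 CPM in members, with Higd1b at 0 in each library. They summed to 364, 388 and 521 CPM in the other gated fibroblasts and to 581, 259 and 380 CPM in all cells that were not members. Perineurial markers summed to 282, 185 and 215 CPM in members and to 271, 190 and 180 CPM in the other gated fibroblasts. In all cells that were not members they summed to 192, 138 and 144 CPM. Most of the members' sum was Ntn4, at 223, 123 and 157 CPM. Cartilage and tendon markers summed to 116, 217 and 186 CPM in members and to 68.9, 144 and 113 CPM in the other gated fibroblasts. In all cells that were not members these markers summed to 51.7, 93.0 and 93.2 CPM. Haemoglobin and other erythroid transcripts summed to 1795, 836 and 41.3 CPM in members and to 2562, 593 and 309 CPM in the other gated fibroblasts. In all cells that were not members their sum was 16124, 1883 and 1140 CPM. Mesothelial markers summed to 0.755, 0.909 and 2.23 CPM with Msln, Krt8, Lrrn4 and Upk1b at 0 in every library. T cell markers summed to 1.92, 1.57 and 2.08 CPM, neutrophil markers to 1.57, 0.505 and 8.03 CPM, endothelial markers to 38.9, 20.5 and 52.2 CPM and Schwann cell markers to 39.6, 39.9 and 35.5 CPM, most of which was S100b. Of 11 macrophage genes 10 were higher with running than in AngII (median 1.16, and 1.504 in the other gated fibroblasts), while 61.6% of all genes were higher. Lyz2, for example, stood at 121, 97.6 and 185 CPM. The part of these other cell types in the ratios with running was not tested.

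Variation between members of the same library went beyond counting error for some genes. The coefficient of variation between cells, with the part expected from counting removed, was ranked over 2846 genes by its smallest value in the 3 libraries. Cd74, a chain of antigen presentation, ranked highest at 6.69, 5.53 and 4.75, and Acta2, smooth muscle actin, followed at 6.30, 3.59 and 3.56, which are known from antigen-presenting cells and smooth muscle. The chemokine Cxcl2, the lubricating proteoglycan Prg4, the protease Mmp3 and the chemokine Ccl2 were also among the 10 highest. Prg4 had values of 2.89, 2.54 and 2.45, and Mmp3 had values of 2.39, 3.42 and 2.68. Col8a1 was more uneven in Vehicle members (7.83) than in AngII members (1.80).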

How the data were processed

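Single-cell RNA was measured in 3 mouse aortic adventitia libraries. The deposited values are UMI counts per gene and barcode, which the authors made with Cell Ranger 7.0.1 (Vehicle, AngII) and 7.1.0 (AngII with running), per the file headers. The mouse build was mm10, per the submitters' processing notes. Whether introns were counted is not given in the sources used here.

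Counts were summed over members of each library and scaled to CPM with python 3.11.15, numpy 2.4.6, scipy 1.17.1 and pandas 2.3.3. Genes counted as measured had at least 5 CPM in either of the groups compared and at least 10 UMIs in both together. A gene was counted as differing at 2-fold on CPM with a pseudocount of 1. Intervals are Clopper-Pearson, Poisson or conditional binomial and exact at 95%. The calculations were tested on simulated data. With 1 library a group no test across libraries was possible, and the pooling of mice within a library is not given in the sources used here.

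Named genes were the genes of the rule, the 15 highest and 8 lowest in members against other gated fibroblasts with at least 50 CPM, and the 10 highest and 10 lowest of each comparison with at least 100 CPM. Other genes were named by list and level or for their role, some of them after their values were seen. The members and lists were chosen with earlier results of these data known. Doublets were kept. An alternative removed the highest Scrublet scores (scanpy 1.11.5) at 0.8% per 1000 cells, which took out 123, 75 and 165 members. Other alternatives changed the rule, the depth of each cell, the pseudocount and the filter.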

Additional observations from a re-analysis of the deposited data

Results flagged for a closer look

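In 4 results the ratio of AngII with running to AngII had opposite directions in members and in the other gated fibroblasts, and the difference was not tested. The median log2 ratio of the 5 progenitor genes of the rule was 0.96 in members and −0.48 in the others, and that of the whole progenitor list was 0.84 in members and −0.41 in the others. The rule excludes members with 4 or more of these genes, and with cells thinned to 5000 UMIs the medians in members were −0.22 and 0.10. Without that exclusion they were −0.42 and −0.00, and with thinning as well −0.50 and −0.10, so the opposite directions were not seen there. The semaphorin, plexin and neuropilin list had a median of 0.37 in members and −0.33 in the others, and 0.26 in members thinned to 5000 UMIs. Without the exclusion on progenitor genes it was 0.17 in members, and 0.14 with thinning as well, where the median of all genes in members was 0.10. The rule itself used Sema3c and Sema3e of this family, so their values in members depend on the rule. Cadm3, a cell adhesion molecule, had a log2 ratio of 0.53 in members and −0.37 in the others.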

How the results depend on the processing

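No paired analysis was possible because each group has 1 library. The share of members in AngII over Vehicle, 1.07, was 0.947 with at least 4 marker genes, 1.32 with at least 2, 1.68 with fewer than 2 progenitor genes, 0.831 without the condition on progenitor genes, 0.861 and 0.726 with cells thinned to 2000 and 5000 UMIs, and 0.662 with thinning to 5000 and no such condition. The share in AngII with running over AngII, 0.801, reversed to 1.06 among cells with at least 5000 UMIs, to 1.41 and 1.80 with thinning to 2000 and 5000 UMIs, and to 1.76 with thinning to 5000 and no progenitor condition. It was 0.559 with a collagen gate of 2% and 0.727 without the progenitor condition. Genes higher with running than in AngII numbered 317 with fewer than 2 progenitor genes, 325 with thinning to 2000 UMIs and 332 without a filter on CPM. A pseudocount of 10 gave 154 higher and 48 lower in AngII over Vehicle, and 51 higher and 103 lower with running. Genes lower in AngII than in Vehicle numbered 252 without the filter and 97 without members that carried Thbs4 or Tnc. Against other gated fibroblasts, 65 genes were lower with separate UMIs for choice and measurement. Against cells with 0 or 1 marker genes 70 were higher and 87 lower, and with thinning to 5000 UMIs 47 were higher and 139 lower. The median of the progenitor genes of the rule in AngII over Vehicle reversed from −1.04 to 0.41 with fewer than 2 progenitor genes. The cause was not tested. In each comparison 19 of 20 named genes kept their direction in all 17 alternatives, the exception being Thbs4 where its own cells were removed. Medians of 19 of 27 lists in AngII over Vehicle and 14 of 27 with running kept their direction. The alternatives against other gated fibroblasts, and thinning without the progenitor condition, were chosen after seeing the data.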
